A study of Mus musculus with 4 samples.

Results

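A small set of cells carrying hepatocyte transcripts was examined in single-cell libraries labelled as biliary epithelium (biliary epithelial cells, BECs, form the lining of the bile ducts). A cell was taken when it held at least 500 transcripts (unique molecular identifiers, UMIs), at least 5 UMIs summed over 7 hepatocyte genes (Fgb, Ass1, Pck1, Tat, Cyp2e1, Cyp3a11 and Cps1), and more UMIs of these than of 4 biliary genes (Epcam, Krt19, Pkhd1 and Cldn7). These gate-positive cells numbered 59 of 12211. The cells were thus selected on the measured UMIs of these 11 genes, so the levels of the gate genes, and of gate-positive cells set against BECs, are descriptions and carry no test. The tests below compare BDL with sham over the 4 libraries, in the share of such cells and in genes outside the gate, some of these relative to the BECs of the same library.

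All 4 mice had the genotype Sox9EGFP, a reporter of the transcription factor Sox9, and each mouse gave 1 library. In 2 mice the cells were taken 7 days after sham surgery and in 2 mice 7 days after bile duct ligation (BDL), which ties off the duct that drains bile from the liver. Fixed cells were barcoded with a split-pool kit and counted per gene. Age, strain, sex and the means of isolating the cells are not given in the labels, and the labels name no control that lacks the reporter. The cell tables carry group names that contradict the sample labels for sham replicate 2, named BDL there, and BDL replicate 2, named sham there. Groups below follow the sample labels, and values are given per library so that sham replicate 1 and BDL replicate 1, whose names match, can be read alone. Sham replicate 1 gave only 2 gate-positive cells, of 663 and 6967 UMIs, and 1 UMI there is 131 CPM. Its values for single genes can thus rest on 1 cell or 1 UMI. In BECs, of the 100 genes most raised and the 100 most lowered in BDL replicate 1 against sham replicate 1 (by log2 of CPM plus 1, with at least 50 CPM in either), sham replicate 2 lay nearer to sham replicate 1 in 98 and 97, and BDL replicate 2 nearer to BDL replicate 1 in 98 and 100. Nos2, an inducible nitric oxide synthase chosen after its values were seen, stood at 9.36 and 5.09 CPM in the sham and 345 and 388 CPM in the BDL BECs, in the order of the sample labels.

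Hepatocytes make most plasma proteins, convert ammonia to urea, make glucose from amino acids and lactate, and oxidise drugs through cytochrome P450 enzymes. The lining cells of the bile ducts share the keratins Krt8 and Krt18 and several nuclear factors with hepatocytes, and add Krt19, Krt7, Epcam, Sox9 and osteopontin (Spp1). Hepatocytes beside the portal tract are known to take on Sox9 and Spp1 during cholestasis while keeping part of their hepatocyte programme.

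The gate-positive cells numbered 2 in sham replicate 1, 28 in sham replicate 2, 7 in BDL replicate 1 and 22 in BDL replicate 2. Their shares of cells were 0.0699% (Clopper-Pearson 95% interval 0.00846% to 0.252%), 0.879% (0.585% to 1.27%), 0.335% (0.135% to 0.689%) and 0.541% (0.339% to 0.818%). The sham libraries held both the lowest and the highest share, so the groups overlapped. The mean difference, BDL minus sham, was -0.036 percentage points (exact permutation p = 1, two-sided; with 2 libraries against 2 the smallest p is 0.33). Without sham replicate 2 it was 0.37 points, and with each cell thinned to 1000 UMIs, 1, 19, 0 and 6 cells passed.

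Depth differed between the groups. The median gate-positive cell held 1458 UMIs in the sham libraries and 7878 in the BDL libraries, and the median BEC held 3314 and 7637. A cell of sham replicate 2 with 54110 UMIs made up 50.6% of the UMIs of that library's gate-positive cells, so values for which leaving it out changes whether the groups overlap are also given without it. Sham levels of the urea cycle, glucose and fatty acid lists were higher without it, at 7227, 14435 and 12032 CPM in that library. Mitochondrial UMIs had a median of 0.35% per gate-positive cell in sham and 6.21% in BDL, against 4.46% to 6.45% in BECs of the 4 libraries. No barcode was shared between libraries. A doublet caller marked 0.106% of all cells and none of the gate-positive ones, too small a share to count as a working call. At the edge of the gate, 3 members, all BDL, held exactly 5 gate UMIs. Just outside it stood 5 cells with 4 gate UMIs that exceeded their biliary gate UMIs, and 14 cells with at least 5 that held as many or more biliary gate UMIs, 12 of them in BDL libraries.

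The groups passed the gate through different genes, which describes the selection and supports no label. By genes outside the gate, given below, the sham cells held both plasma protein genes and metabolic enzymes of hepatocytes, 24 of 29 BDL cells held plasma protein genes but little of the metabolic lists, and 4 BDL cells held mesenchymal genes and did not meet the label of a hepatocyte-like cell. In the 30 sham cells, UMIs were spread over Ass1 and Cps1, enzymes of the urea cycle, Pck1, which starts glucose synthesis, and Tat, which breaks down tyrosine. Ass1 was seen in 28 of 30 cells, Pck1 in 27, Tat in 26, Cps1 in 22 and Fgb, a chain of fibrinogen, in 20. In the BDL libraries, 24 of 29 cells had at least 50% of their gate UMIs from Fgb, 3 in BDL replicate 1 and 21 in BDL replicate 2, against 0 of 30 sham cells. These 24 are called Fgb-led cells here. Ass1 was seen in 2 of them, Cps1 in 5, Tat in 7 and Pck1 in 11, and Cyp2e1 and Cyp3a11 in 0 of 24 (up to 3 UMIs, or 16.1 CPM over their summed UMIs, is compatible with such a count).

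A further 4 BDL cells, 3 in BDL replicate 1 and 1 in BDL replicate 2, passed on Cyp2e1, a P450 of drug and ethanol oxidation. They held 4 to 7 Cyp2e1 UMIs each, in 1 cell with 1 Cps1 UMI that brought it to 5 and in the others with no other gate UMI, and 0 of Fgb, Ass1 and Hnf4a, and 113 to 159 UMIs of 9 mesenchymal genes such as Col3a1 and Dcn. By their leading genes they were mesenchymal, and they are called Cyp2e1-led cells below. The last BDL cell, in BDL replicate 1, held 294 Alb, 10 Cyp3a11, 5 Fgb, 5 Ass1 and 5 Spp1 UMIs in 3395. Of the libraries whose names match, sham replicate 1 had 0 Fgb-led and 0 Cyp2e1-led cells of 2, and BDL replicate 1 had 3 of each among 7.

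**Figure D1:**
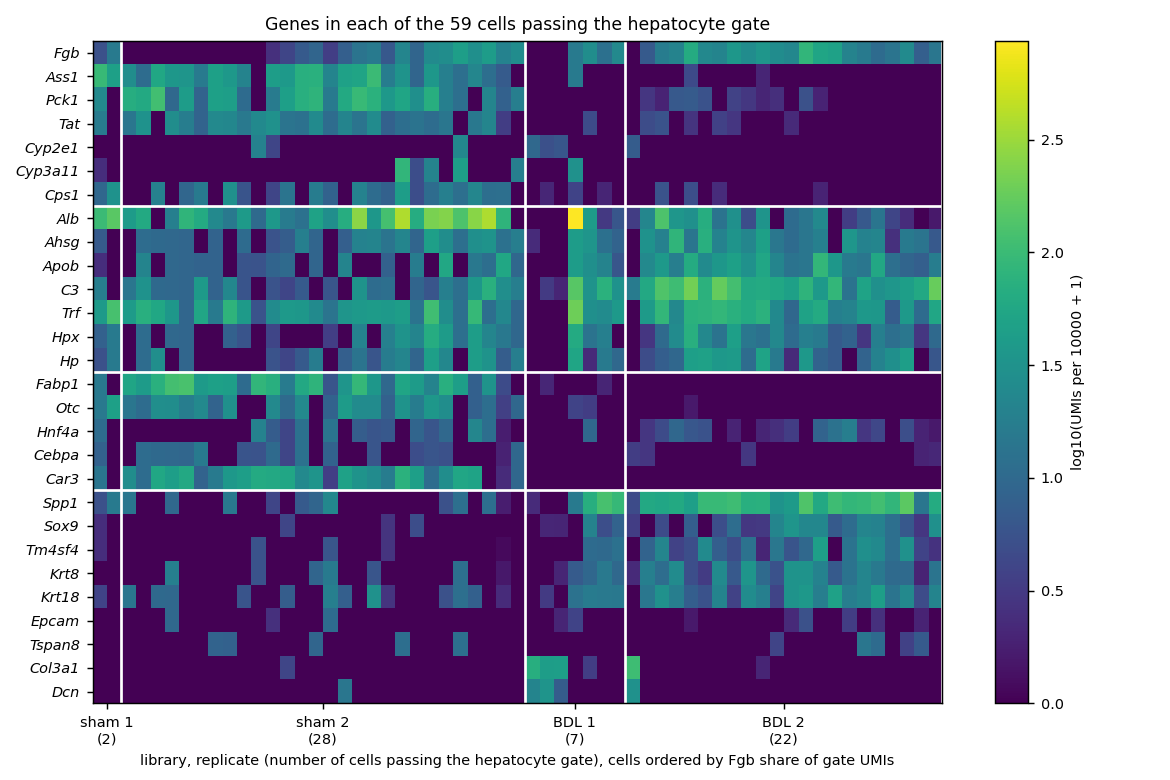
Each column is 1 of the 59 gate-positive cells, ordered within a library by the Fgb share of its gate UMIs, each row is a gene, and colour is log10 of UMIs per 10000 plus 1. White lines part the libraries and, from top to bottom, the gate genes, plasma protein genes, hepatocyte enzymes and factors, and biliary and mesenchymal genes. Ass1, Pck1, Fabp1 and Car3 fill the sham columns, while Spp1, Sox9, Krt8 and Krt18 fill most BDL columns.

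The promoters of 3 genes that part these cells are shown because Fgb is the gate gene through which most BDL cells passed, Pck1 one of which they held few UMIs, and Spp1 a biliary gene they had much of. Each is the 250 bases before the gene's start in RefSeq on the build GRCm38.p6, at chr3:83049864-83050113 on the minus strand for Fgb, chr2:173152823-173153072 on the plus strand for Pck1, and chr5:104434861-104435110 on the plus strand for the first of 2 listed starts of Spp1. They are written 5′ to 3′ along the gene. Capitals mark CTGGGAA or its reverse TTCCCAG, the core of the interleukin-6 response element of acute-phase genes.
Fgb: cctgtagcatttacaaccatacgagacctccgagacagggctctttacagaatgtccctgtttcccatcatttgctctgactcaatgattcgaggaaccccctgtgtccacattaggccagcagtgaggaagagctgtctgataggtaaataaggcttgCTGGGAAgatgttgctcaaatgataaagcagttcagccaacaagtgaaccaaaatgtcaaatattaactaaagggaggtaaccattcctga
Pck1: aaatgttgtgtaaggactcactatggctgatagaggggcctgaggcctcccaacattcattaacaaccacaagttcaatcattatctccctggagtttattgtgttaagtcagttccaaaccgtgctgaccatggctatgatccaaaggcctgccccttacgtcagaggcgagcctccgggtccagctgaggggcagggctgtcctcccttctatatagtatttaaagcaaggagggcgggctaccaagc
Spp1: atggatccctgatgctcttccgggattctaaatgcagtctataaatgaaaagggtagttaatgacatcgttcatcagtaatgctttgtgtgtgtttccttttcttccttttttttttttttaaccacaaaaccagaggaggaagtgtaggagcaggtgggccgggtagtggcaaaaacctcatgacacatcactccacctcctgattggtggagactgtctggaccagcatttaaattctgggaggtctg
The window of Fgb held the core once, and those of Pck1 and Spp1 did not hold these letters. On either strand, the core was in 9.10% of 32851 promoter windows of this length, in 2 of the 25 matched plasma protein genes and in 3 of the 17 matched acute phase genes. A match describes letters in a window and does not show binding.

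Plasma protein genes outside the gate were high in both groups. The 31 genes of this list summed to 40105 CPM (UMIs of the genes per 1000000 UMIs of the summed cells) in sham replicate 1, 41433 in sham replicate 2, 19472 in BDL replicate 1 and 38264 in BDL replicate 2, against 2721 to 3330 CPM in the BECs of the 4 libraries. The groups did not overlap for the sum. BDL replicate 1 includes 3 of the Cyp2e1-led cells, in which the list summed to 147 CPM (4 UMIs). Ahsg, which encodes the plasma glycoprotein fetuin-A, stood at 524, 1141, 1045 and 1968 CPM in sham replicates 1 and 2 and BDL replicates 1 and 2. Apob, the backbone of very-low-density lipoprotein, stood at 131, 3225, 1063 and 3189 CPM, and Hpx, which binds free haem, at 786, 1271, 850 and 1873 CPM. For Ahsg, Apob and Hpx the groups overlapped. The deepest cell held 300 of the 345 Apob UMIs of sham replicate 2; without it that library stood at 851 CPM, and both BDL libraries lay above both sham libraries for Apob but not for Ahsg or Hpx. The 131 CPM of Apob in sham replicate 1 is 1 UMI, and a floor of 3 UMIs is 393 CPM there. Other genes of the list were lower in BDL: Apoa2, an apolipoprotein of high-density lipoprotein, stood at 131, 1056, 17.7 and 65.2 CPM. In BECs Hpx was at 1.27 to 3.96 CPM in all 4 libraries.

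Per cell, the plasma protein list ran from 108 to 1175 UMIs per 10000 in the sham cells (median 381) and from 116 to 780 in the Fgb-led cells (median 291). In BDL BECs the median was 28.2 and the highest of 5771 cells 305. All 24 Fgb-led cells lay above 92.4 per 10000, the 99th percentile of BDL BECs. Albumin itself was lower in the Fgb-led cells, with 2156 CPM against 8499 CPM in the sham cells and 55.3 CPM in BDL BECs. In BECs Alb was also lower in BDL than in sham, with a log2 fold change of -3.90 (SE 0.24).

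**Figure D2:**
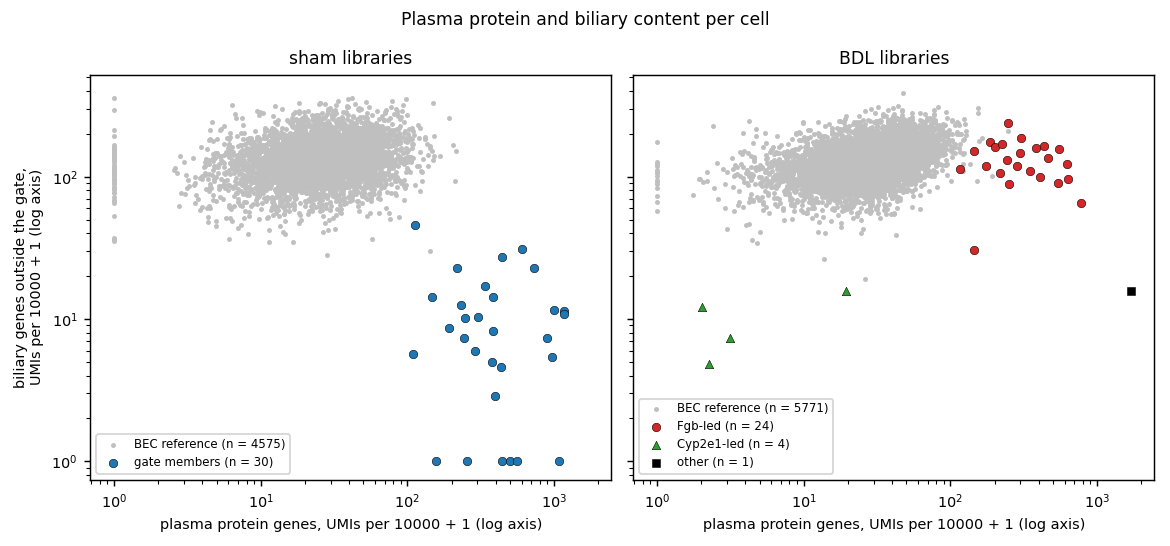
Each point is a cell, with UMIs per 10000 plus 1 of the 31 plasma protein genes on the x axis and of 19 biliary genes outside the gate on the y axis, both logarithmic, sham libraries on the left and BDL libraries on the right. Grey points are BECs. The sham gate-positive cells lie to the right of and below the BECs, the Fgb-led cells to the right at the height of the BECs (median 126 per 10000 against 128), and the Cyp2e1-led cells at the lower left.

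Genes of nitrogen, sugar and fat metabolism parted the groups, which also differed in depth and in the gate content needed to pass. The urea cycle and ammonia list without the gate genes (8 genes) summed to 4587 and 4263 CPM in the sham replicates and 372 and 302 CPM in the BDL replicates. The list of glucose and amino acid metabolism (14 measured genes) summed to 16252 and 8516 CPM in sham and 602 and 889 CPM in BDL. Fatty acid oxidation (16 genes) went from 11271 and 7806 CPM to 797 and 1381 CPM, and P450 and drug metabolism (20 genes) from 3670 and 5086 CPM to 1045 and 1251 CPM. For these 4 lists the sham and BDL libraries did not overlap, and in the Fgb-led cells alone they stood at 6.64%, 9.74%, 17.2% and 24.3% of the sham cells' pooled level. Without the deepest cell, these shares were 4.12%, 6.00%, 11.5% and 20.4%. Fgb-led cells were chosen by the Fgb share of their gate UMIs, which limits the other gate genes, among them enzymes of these pathways. The part of that choice in these shares was not tested. The plasma protein list of the Fgb-led cells stood at 90.3% of the sham cells' level, 48.5% in BDL replicate 1 and 97.0% in BDL replicate 2, and the acute phase list at 220%, 124% and 235%. Over all gate-positive cells the acute phase list summed to 6029 and 8470 CPM in sham and 7920 and 18726 CPM in BDL, with overlapping groups. Without the deepest cell sham replicate 2 stood at 6678 CPM and the groups did not overlap. The share in the Fgb-led cells was then 277%. Of the 31 plasma protein genes, 14 stood above and 17 below the sham level in the Fgb-led cells, among them Vtn (vitronectin) at 218%, Apoa2 at 5.93% and Serpina3k, a serine protease inhibitor, with 0 UMIs against 1614 CPM in sham. The complement gene C3, on both lists, gave 1676 of the 6960 plasma protein UMIs, and the other 30 genes together stood at 71.8%. The acute phase list shares 5 genes with the plasma protein list, and its members also lay on both sides. Of its 20 genes, 10 stood above and 10 below the sham level in the Fgb-led cells. C3 gave 1676 of its 3403 UMIs there, and the other 19 genes together stood at 144%. Hp, which binds haemoglobin, stood at 238% of the sham level and Hamp, the iron hormone hepcidin, at 164% (324% without the deepest cell, which held 11 of the 15 sham Hamp UMIs), while the serum amyloid gene Saa1 had 34 UMIs in the sham and 0 in the Fgb-led cells and Orm1 stood at 24.6%.

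Bile acid synthesis and transport (19 genes) summed to 524, 1571, 496 and 676 CPM, with overlapping groups. Cyp7a1 and Cyp8b1, which make bile acids, had 0 UMIs in all gate-positive cells. Abcb11, the bile salt export pump, stood at 0 and 337 CPM in the sham and 17.7 and 47.4 CPM in the BDL replicates, and Abcc2, which exports conjugated bilirubin, at 0, 187, 195 and 296 CPM. The deepest cell held 30 of the 36 Abcb11 and 19 of the 20 Abcc2 UMIs of sham replicate 2, which without it stood at 114 and 18.9 CPM. With or without it, both BDL libraries lay above both sham libraries for Abcc2. In sham replicate 1, however, a floor of 3 UMIs is 393 CPM, above both BDL values, so this order is not resolved. The 14 hepatocyte transcription factors summed to 2228 and 1281 CPM in sham and 461 and 972 CPM in BDL. Hnf4a, which maintains hepatocyte identity, stood at 917, 318, 124 and 290 CPM, and BECs of the same libraries had 190 to 390 CPM of it. Cebpa, a factor of mature hepatocytes, stood at 655 and 280 CPM in sham and 0 and 41.5 CPM in BDL.

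**Figure D3:**
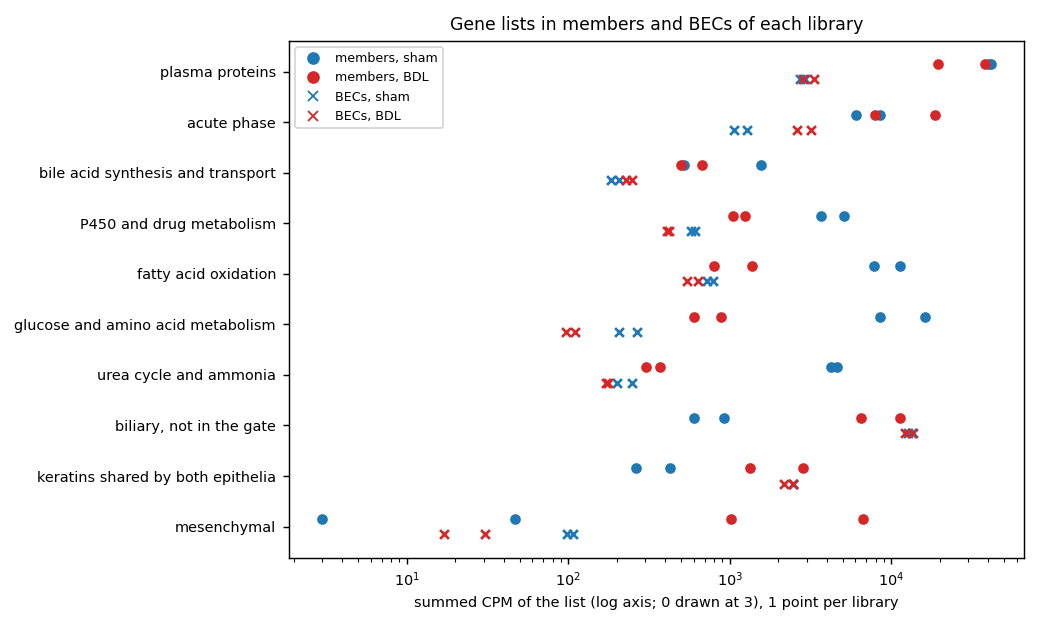
Summed CPM of 10 gene lists on a logarithmic axis, 1 point per library, circles for gate-positive cells and crosses for BECs, blue for sham and red for BDL. The urea cycle, glucose, fatty acid and P450 lists of the BDL circles lie between those of sham circles and BECs, and for the bile acid list the circles overlap. The biliary list of the BDL circles lies near the BECs (6538 and 11376 CPM against 12222 to 13683).

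Biliary genes outside the gate were low in the sham cells, and some of them were high in the BDL cells. The 19 genes together stood at 6.71% and 4.71% of the level in BECs of the same library in the sham replicates, and at 53.5% and 84.6% in the BDL replicates. The mean difference was 63.3 percentage points, and both BDL libraries lay above both sham libraries (exact permutation p = 0.33, the smallest possible). It was 87.2 points without the Cyp2e1-led cells and 25.7 points with Fgb left out of the gate. Spp1 was seen in 28 UMIs of 13 sham cells and in 1372 UMIs of all 24 Fgb-led cells, 14 to 117 UMIs each, and 25 of 29 BDL cells held more Spp1 than Alb UMIs, against 0 of 30 sham cells. The 25 include Cyp2e1-led cells near the floor, with 1 Spp1 against 0 Alb UMIs and 3 against 2. With cells thinned to 1000 UMIs, Spp1 was found in 5 of 24 sham cells, or 20.8% (7.13% to 42.2%), a share no higher than the 27.0% of sham endothelial cells, which should lack it. In BDL it was found in 25 of 29 cells, or 86.2% (68.3% to 96.1%), against 20% of endothelial and 94.6% of biliary cells. Before thinning the shares in gate-positive cells were 43.3% and 93.1%, at median depths of 1458 and 7878 UMIs, and in endothelial cells 29.6% and 41.3%, at 1157 and 2817.5 UMIs.

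The Fgb-led cells held some biliary genes at or above the BEC level and others far below it. Sox9 stood at 1175 CPM, 211% of the level in BDL BECs, and was 213% in BDL replicate 1 and 202% in BDL replicate 2. Tm4sf4, a tetraspanin-like membrane protein, stood at 218% of BECs (214% and 211%), Spp1 at 151% (208% and 139%), Krt18 at 133% and Krt8 at 112%. Bicc1 and Glis3 followed at 89.5% and 64.8%. Of the 19 biliary genes, 6 reached at least 50% of the BEC level and 11 stood under 25%. Their median was 20.2%, and Spp1 gave 61.0% of the list's UMIs. The sum was 57.6% of BECs without Spp1 and 33.4% without Spp1, Sox9 and Tm4sf4.

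Among the low genes, Cldn4, a tight junction claudin, stood at 0.623% of the BEC level with 1 UMI in 24 cells, Cftr, the chloride channel of bile secretion, at 3.23%, Muc1 at 4.65%, Ehf, an epithelial factor, at 7.97% and Tspan8 at 11.04%. Krt7 had 0 UMIs in the Fgb-led cells (a floor of 3 UMIs is 16.1 CPM) against 183 CPM in BDL BECs. Epcam, Krt19 and Cldn7 stood at 3.05%, 2.86% and 10.9%, and Pkhd1 at 17.0%; the gate limits these 4. In BDL replicate 1, with 3 Fgb-led cells, Cftr, Cldn4, Muc1, Tspan8 and Krt7 were at 0, where a floor of 3 UMIs is 116 CPM. Sox9, Spp1 and Tm4sf4 stood above BECs in both BDL libraries. Outside any list, Kcnip4 and Ano1, each above 240 CPM in BDL BECs, had 0 UMIs in the Fgb-led cells; these 2 names were chosen after their values were seen. The median depth of the Fgb-led cells was 7433.5 UMIs and that of BDL BECs 7637.

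**Figure D4:**
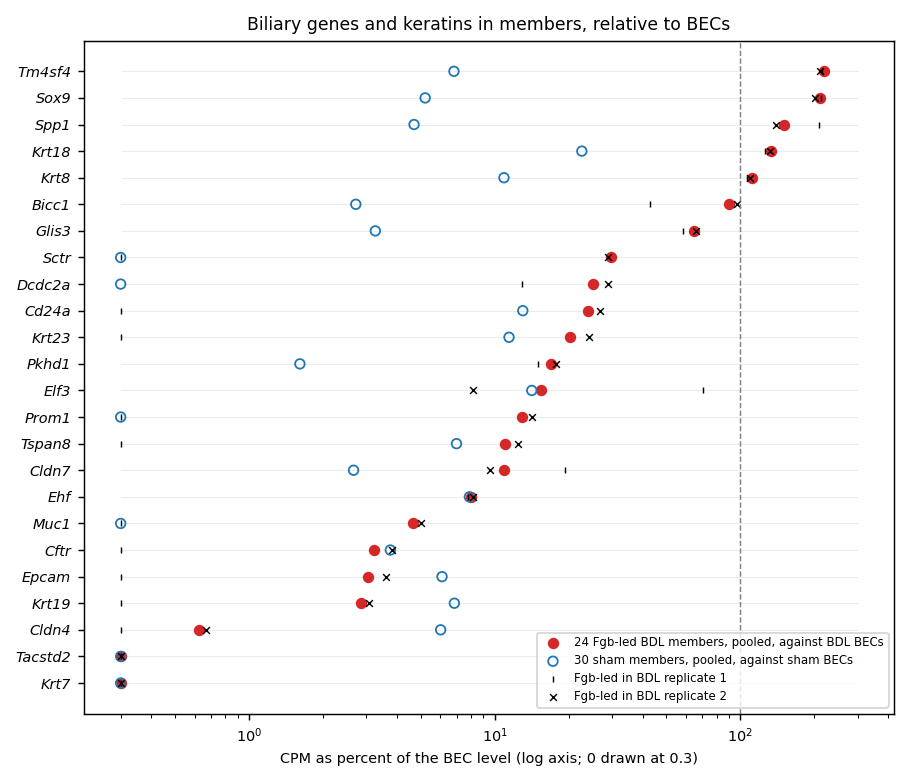
For 18 biliary genes outside the gate, the 4 biliary gate genes, Krt8 and Krt18, CPM as percent of the BEC level on a logarithmic axis, with red dots for the pooled Fgb-led cells, black marks for each BDL library and open blue circles for the pooled sham gate-positive cells. Tm4sf4, Sox9, Spp1, Krt18 and Krt8 lie above 100% in the pooled Fgb-led cells, the other red dots lie below it, and all blue circles lie at or below 22.6%.

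Markers of other cells were low in the sham and Fgb-led cells. The 9 mesenchymal genes summed to 5 UMIs in the 30 sham cells, 16 in the 24 Fgb-led cells and 535 in the 4 Cyp2e1-led cells. The 9 endothelial genes summed to 2, 3 and 51 UMIs and the 10 macrophage genes to 0, 10 and 1. The 9 cell cycle genes had 0 UMIs in the sham cells and 21 in the Fgb-led cells, 18.2% of the BEC level.

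Relative to BECs, many hepatocyte genes other than those of the gate stood high in both groups, as a description. Of 122 genes in the 7 hepatocyte lists, 105 had at least 10 CPM in the pooled cells or BECs and 84 of these were at least 4-fold above BECs, where 9.19% of 9770 such genes were. In sham 106 had at least 10 CPM in the sham cells or their BECs and 85 of these were at least 4-fold above BECs, where 10.7% of all 9465 such genes were. In BDL 86 had that level and 56 were at least 4-fold above, where 8.18% of 9582 were. The pooled genes of highest fold were Car3, Serpina3k, Cyp2f2, Mup3, Mup20, Mug1, Aox3, Kng1, Serpina1a and Serpina1d, from 4621-fold (577 against 0.125 CPM) to 1287-fold. This order is mainly that of the sham cells: Car3 had 0, Serpina3k and Mup3 1 and Cyp2f2 2 UMIs in the BDL cells, where Igfbp1, Mug1, Bhmt, Mup20 and Kng1 led, from 1913-fold to 1435-fold. Their fold rests on few BEC UMIs. The Mup, Serpina1 and Mug genes have near-identical copies among which reads can be split. Of the biliary list, 18 of 18 measured genes were at least 4-fold below BECs in sham, where 37.2% of genes were, and 12 of 18 in BDL, where 9.57% were.

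Zonation was examined because hepatocytes near the portal tract and near the central vein express different enzymes. Of the UMIs of 15 pericentral and 11 periportal genes outside the gate, the pericentral share was 1.79% and 7.79% in the sham and 9.59% and 7.57% in the BDL replicates. The mean difference was 3.79 points (exact permutation p = 0.67), and -1.90 points without the Cyp2e1-led cells. In the sham cells the periportal genes Hal and Cyp2f2 each stood at 689 CPM, and Glul, the pericentral glutamine synthetase, at 34.9 CPM, below the 140 CPM of sham BECs. The shares rest on 1 and 48 pericentral UMIs in the sham and 7 and 14 in the BDL replicates. Without the deepest cell, Cyp2f2 stood at 397 CPM in the sham cells.

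BDL and sham were then compared gene by gene with UMIs summed per library over the gate-positive cells. Of 1724 genes tested with edgeR, 490 were higher and 255 lower in BDL at an adjusted p under 0.05, 28.4% and 14.8% of those tested. Among the called genes, 5 of the lower ones are hepatocyte gate genes and 1 of the higher ones a biliary gate gene, and nothing is read from these 6. The median log2 fold change of all tested genes was 0.99, and 1.33 without TMM scaling, so single values are to be read against that shift. Both BDL libraries lay outside the range of both sham libraries for 70.3% of the genes. Without BDL replicate 1 edgeR called 0 genes (206 at an unadjusted p under 0.05), without sham replicate 2 it called 34, without BDL replicate 2 421, and without the deepest cell 412. The sums compare cells of different kinds, as described, and differ with them in depth and mitochondrial share; the part of either in the calls was not tested. Nothing in the labels says more of the replicates than that they are separate mice, 2 per group.

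The metabolic genes that passed were lower in BDL, where 14.8% of all tested genes were. Such genes fell in BECs too, where 12% of 15957 tested genes did. There 4 of 8 urea cycle, 6 of 10 glucose and amino acid, 5 of 14 fatty acid and 4 of 9 P450 genes fell. Of the same lists 0, 1, 0 and 0 genes rose in BECs. In the gate-positive cells, of the 8 urea cycle genes, 5 were tested and 5 fell, with a median log2 fold change of -3.94. Otc fell by 5.56 on the log2 scale (SE 1.14, edgeR adjusted p = 4.14e-05). Of 14 measured genes of glucose and amino acid metabolism, 11 were tested and 11 fell, among them Fbp1, Hpd and Hal. Fatty acid oxidation had 8 of 10 tested genes lower and 0 higher, P450 and drug metabolism 4 of 6 lower, and the 11 periportal genes outside the gate 6 of 8 lower. A gene reaches this test when it is high in at least 1 group, so tested genes are not the whole lists, and a gene near 0 in a group had to differ to be tested. Without BDL replicate 1 none of these genes was called, and without BDL replicate 2 the counts were 1 of 6 urea cycle and 7 of 11 glucose and amino acid genes. With no filter on low counts, 1 of 8 urea cycle, 3 of 14 glucose and amino acid, 2 of 15 fatty acid and 2 of 17 P450 genes were called lower. With Fgb left out of the gate these counts were 2 of 4, 6 of 9, 2 of 7 and 1 of 5, and without sham replicate 2 they were 2 of 3, 4 of 6, 1 of 6 and 2 of 6.

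Among plasma protein genes 30 of 31 were tested, 7 fell, 0 rose and 23 did not pass, where 14.8% of all tested genes fell and 28.4% rose. Those that did not pass include Ahsg (log2 fold change 0.73, SE 0.98, adjusted p = 0.55), Apob (0.03, SE 1.04, and 1.58 with adjusted p = 0.32 without the deepest cell) and Alb (-1.02, SE 1.23, edgeR adjusted p = 0.50). Of the acute phase list 15 of 20 genes were tested, with 4 higher and 3 lower (1 higher and 3 lower of 12 tested without the deepest cell), shares near those of all tested genes, and of the bile acid list 3 were tested and 1 fell. Of the 14 transcription factors, 5 were tested and 3 fell; Cebpa fell by 3.57 (SE 0.80, edgeR adjusted p = 0.000138), while Hnf4a (-1.08, SE 0.82) did not pass.

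Of the 19 biliary genes outside the gate 6 could be tested, and these 6 rose. They passed the filter on low counts through the BDL libraries, where they are high, so their common direction is no support. Without the deepest cell 4 of 5 tested rose. Spp1 rose by 4.24 on the log2 scale (SE 1.29, edgeR adjusted p = 0.00503), Sox9 by 4.21 (SE 1.16, edgeR adjusted p = 0.00199) and Tm4sf4 by 3.67 (SE 1.09, edgeR adjusted p = 0.00421). The values of Spp1 were 524 and 224 CPM in sham and 4465 and 6693 CPM in BDL, and those of Sox9 131 and 28.05 against 496 and 1156 CPM. The groups did not overlap for either gene. In BECs neither gene passed the same comparison (Spp1 -0.10, SE 0.13; Sox9 -0.32, SE 0.15), in which 25.3% of 15957 genes did. The difference between the effects was 4.72 for Spp1 (edgeR adjusted p = 0.57) and 4.73 for Sox9 (adjusted p = 0.21), so it was not resolved. Without BDL replicate 1, without sham replicate 2, with a gate of at least 3 UMIs, or with no filter on low counts, 0 biliary genes were called.

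The largest falls by the rule for named genes were in Car3, Agxt, Uox, Mup3 and Serpina3k. Car3, a carbonic anhydrase of liver and fat, had 196 UMIs in the sham cells (1180 and 1748 CPM) and 0 in BDL, at least 128-fold lower against a floor of 3 UMIs over the BDL group. Agxt, which detoxifies glyoxylate, had 43 UMIs in sham and 0 in BDL, at least 28.2-fold lower. Uox, the uricase of mice, had 204 and 1 UMIs, a 401-fold ratio (counting interval 71.1 to 15906).

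The largest rises were in Thbs1, Bgn, Ccdc80, Vcam1 and Nid1, genes of matrix and adhesion, each with 0 UMIs in the sham cells. Against a floor of 3 UMIs over the sham group they were at least 44.1, 28.2, 18.5, 20.02 and 24.3 times higher in BDL. The 4 Cyp2e1-led cells held 165 of the 166 Bgn and 108 of the 109 Ccdc80 UMIs, but 119 of 260 for Thbs1, 40 of 118 for Vcam1 and 28 of 143 for Nid1. The 4 mesenchymal genes that could be tested, Col3a1, Col1a2, Col1a1 and Dcn, rose as well. This rests on the Cyp2e1-led cells, which held 535 UMIs of the 9 mesenchymal genes against 16 in the Fgb-led cells: without them 0 of these genes reached the test.

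The difference between the BDL effect in gate-positive cells and in BECs was tested gene by gene. It passed in 21 of 13474 genes, or 0.156%, with 19 (0.141%) higher and 2 (0.0148%) lower in gate-positive cells, and 1008 genes had an unadjusted p under 0.05. Dcn, Bgn and Col3a1 are among the 19, and without the Cyp2e1-led cells the difference of Col3a1 was 0.71 and that of Dcn -7.92, neither called (edgeR adjusted p = 1 for both); Fabp1, a fatty acid carrier, is one of the 2 lower. Fabp1 stood at 1311 and 2309 CPM in sham and 35.4 and 0 CPM in BDL gate-positive cells, against 10.8 to 17.2 CPM in BECs. Without the Cyp2e1-led cells 4 genes passed, and without either BDL replicate none did.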

How the data were processed

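RNA of fixed cells was primed with random hexamers and oligo(dT) and barcoded in split pools, per the labels. Raw UMI counts, not normalized, were deposited for each gene in each cell. The submitters' processing notes name the build GRCm39, and the aligner and cell threshold are not given in the sources used here. A signal-like estimate of deposited counts at reduced depth was not used. The 4 libraries held 10024577 to 33809650 UMIs, and intervals cover counting error only.

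BECs were cells with at least 5 biliary gate UMIs, at least as many as hepatocyte gate UMIs and more than of the mesenchymal, endothelial or macrophage list; other reference cells were set likewise. Counts were summed per library. edgeR 4.0.16 (TMM, default filter, quasi-likelihood test, Benjamini-Hochberg, two-sided) compared BDL with sham, and the same model with library as block gave the difference of effects. Alternatives included DESeq2 1.42.0. Doublets were scored with Scrublet in scanpy 1.11.5. Fits were tested on simulated data.

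The members and gene lists were chosen with earlier results of these data known. Named genes were the gate genes, Alb, Ahsg and Apob, the 4 of highest level in each list, the 10 of highest fold over BECs with at least 200 CPM, and the 5 largest rises and falls among genes averaging 50 CPM or more that passed the 0.05 threshold and whose groups did not overlap. Some genes that this rule names are not reported here.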

Additional observations from a re-analysis of the deposited data

Results flagged for a closer look

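In 4 named genes the change from sham to BDL differed between gate-positive cells and BECs by a test of the difference itself (edgeR, adjusted p under 0.05). The difference, gate-positive cells minus BECs, was 16.1 on the log2 scale for Bgn, 7.11 for Col3a1 and 6.67 for Dcn, and -6.35 for Fabp1. The value of Bgn depends on sham sums of 0 UMIs and is no measure of size. The 4 Cyp2e1-led cells held 165 of 166 Bgn UMIs, and without them the difference was 0.71 for Col3a1 and turned to -7.92 for Dcn, neither called. Groups of 2 libraries are too small to look for an outlying library.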

How the results depend on the processing

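No paired analysis was possible because replicate numbers here only follow sample order. The share difference (BDL minus sham) ranged from -0.44 to 0.37 percentage points with 1 library left out, reversing without sham replicate 2 (0.37) and without BDL replicate 1 (0.067), and was 0.031 with at least 1000 UMIs per cell. The pooled biliary list of gate-positive cells, 53.0% of BECs, ranged from 20.1% to 74.9% with 1 library left out, was 37.3% as a mean of libraries, 9.81% in cells with no biliary gate UMI and 17.9% with Fgb left out of the gate. The pericentral difference was 0.79 to 6.79 points with 1 library left out, -0.88 with at least 10 gate UMIs and -1.90 without the Cyp2e1-led cells. Of the hepatocyte genes 63 to 88 were at least 4-fold above BECs with 1 library left out, against 84.

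Genes called by edgeR between BDL and sham, 745, numbered 0 to 643 with 1 library left out (34 without sham replicate 2, 0 without BDL replicate 1, 421 without BDL replicate 2), 66 with no filter on low counts, 0 of 23 with at least 10 counts in every library (3 at an unadjusted p under 0.05), 462 with DESeq2, 142 with at least 3 gate UMIs, 62 with no biliary gate UMI, 149 with Fgb left out of the gate and 412 without the deepest cell. Without TMM scaling 621 were higher and 222 lower, and with DESeq2 251 and 211. Genes with a different effect in BECs, 21, numbered 0 to 226 with 1 library left out, 386 without TMM, 13 with no filter, 2 with at least 10 counts, 311 with DESeq2, 0 with at least 10 gate UMIs (646 unadjusted), 134 with at least 3, 8 with more than 5 times the biliary UMIs, 10 with at least 1000 UMIs, 41 without the highest doublet scores, 5 with Fgb left out, 4 without the Cyp2e1-led cells and 120 without the deepest cell. The causes of these moves were not tested.

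Over 34 named genes outside the gate called between BDL and sham and 536 refits, 422 kept direction and call, 114 lost the call and 0 reversed. The difference for Dcn reversed to -7.96 with at least 10 gate UMIs and -7.92 without the Cyp2e1-led cells. Leaving Fgb out of the gate, leaving out the Cyp2e1-led cells or the deepest cell, and thinning were chosen after seeing the data, and leaving a group with 1 library assumes that it varies like the others.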
